A study of Homo sapiens with 12 samples.

Results

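The genes described here are 35 genes of the endoplasmic reticulum (ER) that fold, degrade or translocate secretory proteins or signal the unfolded protein response, out of 61860 genes in the deposited table. They were chosen as a list of symbols and not by a cut-off on measured values, though with earlier results of these data known. The list holds 5 chaperones, 4 disulphide isomerases, 6 co-chaperones and secreted targets of the response, 4 genes of the sensors and XBP1, 9 genes of ER-associated degradation and 7 genes of protein translocation. All 35 were found in the table and passed the filter on low counts in every comparison.

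RNA came from human HEK293 Flp-In T-REx cells, an embryonic kidney line with a single site for an inducible transgene. In both lines doxycycline at 1 µg/ml for 6 days induced a cassette of miRNAs that target endogenous PGC-1α, and with it a FLAG-tagged PGC-1α resistant to them. WT-res cells received the full-length protein, and ΔRS-res cells received one with a deletion in the serine-arginine-rich RS domain. The deposited description places the deletion at amino acids 595 to 633, whereas the study's text lets the RS domain begin at an earlier residue. Whole-cell RNA was taken from 1 well and cytoplasmic RNA from 6 pooled wells, with 3 replicates from consecutive passages per line and fraction, which gave 12 libraries. Each genotype is represented by 1 stable line, so the transgene and other differences between the lines cannot be told apart. Cytoplasmic RNA was the supernatant of a hypotonic lysate after stepwise centrifugation, and the buffer listed in the study's methods holds no detergent. In such bulk libraries, less RNA per cell and fewer cells that carry it cannot be told apart.

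Secretory and membrane proteins enter the ER through the Sec61 channel while they are being made, on ribosomes bound to the ER membrane. Inside, HSPA5 (also called BiP) and its partners fold them, the disulphide isomerases form their disulphide bonds, and proteins that fail to fold are moved back to the cytosol and degraded. When unfolded proteins accumulate, the sensors IRE1 (gene ERN1), PERK (EIF2AK3) and ATF6 raise the expression of these same folding and degradation genes. IRE1 does so by cutting a short segment out of XBP1 mRNA in the cytoplasm.

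Library totals lay between 90333190 and 144628005 expected counts. The HEK293 markers WT1, PAX2, LHX1 and NEFL were present in all libraries (NEFL between 17200 and 50552 counts), NEFM was low (25 to 72 counts), and of 8 markers of other lineages the blood and endothelial genes PTPRC, CD3E and CDH5 had at most 4 counts, LYZ, PECAM1 and ALB 4 to 22, the muscle gene MYOD1 3 to 39 and the fibroblast collagen COL1A1 322 to 757. The whole-cell library labelled WT-res replicate 3 went against its label. It had 21 counts of DDX19B, compared with 1140 to 2059 in the other WT-res libraries and 27 to 45 in ΔRS-res, and 35397 counts of SDHA, compared with 6598 to 10687 and 34207 to 50189. Whole-cell group means and their SDs include this library, and the tests of whole-cell WT-res RNA are given with it and without it where its removal changes a call.

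The 35 genes took 0.482% to 0.644% of a library's counts in whole-cell RNA but 0.136% to 0.160% in cytoplasmic RNA. In TPM, a level per transcript length, CANX, the membrane-bound lectin chaperone calnexin, had the highest level in whole-cell WT-res RNA with 531 ± 131 (SD, n = 3). It was followed by HSP90B1, the ER form of HSP90, with 403 ± 32.5 TPM, and by CALR, the soluble lectin chaperone calreticulin, with 379 ± 116 TPM. CANX stood above the other 2 in replicates 1 and 2, with 603 and 611 TPM, compared with 379 and 440.3 for HSP90B1 and 450.4 and 442 for CALR. In the library labelled replicate 3 HSP90B1, with 390.4 TPM, was level with CANX (381) and above CALR (246). In ΔRS-res the means were 488 ± 41.6 TPM for CANX, 371 ± 46.6 for HSP90B1 and 445 ± 129 for CALR.

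Of the disulphide isomerases in whole-cell WT-res RNA, PDIA3 was at 200.4 ± 35.3 TPM, P4HB at 179 ± 32.5, PDIA6 at 135 ± 18.4 and PDIA4 at 93.5 ± 33.4. HSPA5, the main ER HSP70, stood at 129.5 ± 40.2 TPM, within the spread of PDIA6. The sensors were far lower. ATF6 was at 24.1 ± 1.51 TPM, the kinase EIF2AK3 at 9.36 ± 0.553 and ERN1 at 3.81 ± 0.639, which was the lowest level of the 35 genes. XBP1, the transcription factor downstream of ERN1, was measured at 73.6 ± 7.38 TPM.

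Cytoplasmic and whole-cell RNA differed far more for these genes than the lines did. Where fractions are compared, counts are given as CPM, that is, scaled to a common library size over all 12 libraries by the trimmed mean of M-values (TMM). HSPA5 was measured at 349, 357 and 202 CPM in whole-cell WT-res replicates 1 to 3 and at 21.1, 30.2 and 19.6 CPM in the cytoplasmic replicates. In ΔRS-res the values were 336, 332 and 216 CPM in whole-cell RNA and 26.4, 27.9 and 15.9 CPM in the cytoplasm. All 6 cytoplasmic libraries thus lay far below all 6 whole-cell libraries, and the averaged difference was 12.6-fold in WT-res. Its log2 fold change, cytoplasmic over whole-cell, was -3.69 in WT-res (SE 0.277, adjusted p = 3.95e-05) and -3.65 in ΔRS-res (SE 0.266, adjusted p = 2.46e-05). Here SE is the standard error, and p comes from the quasi-likelihood test of edgeR, adjusted over all genes after Benjamini and Hochberg.

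With this test at an adjusted p under 0.05, 30 of the 35 genes were lower in the cytoplasm in WT-res and none was higher, whereas 22.4% of all genes tested were called lower and 12% higher. In ΔRS-res 32 of 35 were lower and 1 was higher, with 24.1% of all genes lower and 17% higher. The median log2 fold change of the 35 genes was -1.35 in WT-res and -1.48 in ΔRS-res, compared with -0.06 over all genes tested in each line. When the whole-cell library labelled WT-res replicate 3 was left out, 32 of the 35 were lower in WT-res (22.7% of all genes) and the median was -1.31.

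Chaperones and disulphide isomerases were the lowest groups, and all 9 were called lower in both lines. PDIA3, which acts with the lectin chaperones, was measured at 302, 299.9 and 228 CPM in whole-cell WT-res and at 27.0, 33.5 and 25.2 CPM in the cytoplasm, with log2 fold changes of -3.29 in WT-res and -3.37 in ΔRS-res. The corresponding log2 fold changes in WT-res and ΔRS-res were -2.83 and -2.53 for HSP90B1, -2.72 and -2.82 for HYOU1 (an HSP70 relative that exchanges the nucleotide of HSPA5), and -2.66 and -2.58 for CALR. CANX was less reduced, with -1.85 in WT-res and -2.18 in ΔRS-res. The isomerases PDIA4 and PDIA6 had -2.74 and -2.43 in WT-res, and P4HB, with -1.99, had the smallest change of the isomerases. With the whole-cell library labelled WT-res replicate 3 left out, the WT-res values were -3.93 for HSPA5, -3.43 for PDIA3, -3.02 for PDIA4 and -2.05 for CANX.

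Of the co-chaperones and secreted targets, 5 of 6 were called lower in each line. DNAJB11, a J-domain partner of HSPA5, was lowest, with log2 fold changes of -2.22 in WT-res and -2.19 in ΔRS-res. CRELD2 and MANF, secreted products of the response, had -1.48 and -1.03 in ΔRS-res, and DNAJC3 and DNAJB9, further J-domain partners, had -1.48 and -0.70 there. SDF2L1, which holds clients with DNAJB11, was the exception with -0.70 in WT-res (adjusted p = 0.089) and -0.68 in ΔRS-res (adjusted p = 0.0817) from edgeR's test. It passed in WT-res once the whole-cell library labelled WT-res replicate 3 was left out (log2 fold change -0.95, adjusted p = 0.0145), and in ΔRS-res with the replicate number as a block (-0.68, adjusted p = 8.84e-06).

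The sensor genes and XBP1 were all called lower in both lines. In WT-res the log2 fold change was -1.51 for EIF2AK3, -1.35 for ERN1, -0.94 for ATF6 and -0.46 for XBP1, and in ΔRS-res it was -1.49, -1.65, -1.15 and -0.79. XBP1 was thus closest to 0 of this group in both lines, and it had -0.38 in WT-res without the whole-cell library labelled WT-res replicate 3 (adjusted p = 0.0286 from edgeR's test).

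In ER-associated degradation the ubiquitin ligase SYVN1 and its partner SEL1L were lowest, with log2 fold changes of -2.11 and -2.04 in WT-res and of -2.04 each in ΔRS-res. The 3 derlins, membrane proteins of the retrotranslocation machinery, spread widely: DERL1 had -1.91, DERL3 -1.21 and DERL2 -0.80 in WT-res. The 3 EDEM genes, which trim mannose from misfolded glycoproteins, lay between -0.84 (EDEM1) and -1.21 (EDEM3) in WT-res. HERPUD1, a membrane adaptor of the ligase, was measured at 26.5, 26.9 and 35.3 CPM in whole-cell WT-res RNA and at 25.0, 19.1 and 24.7 CPM in the cytoplasm. These ranges did not overlap but the log2 fold change of -0.37 missed the threshold (adjusted p = 0.0866 from edgeR's test), while in ΔRS-res it was -0.57 and passed (adjusted p = 0.0214). Without the whole-cell library labelled WT-res replicate 3 it was -0.25 in WT-res (adjusted p = 0.157).

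The translocation genes went in both directions. SEC61A1, which encodes the channel itself, was measured at 179, 179 and 128 CPM in whole-cell WT-res and at 31.6, 41.3 and 28.9 CPM in the cytoplasm, a log2 fold change of -2.26 (-2.28 in ΔRS-res). SEC61B, a small tail-anchored subunit of the same channel, was measured at 53.4, 56.4 and 31.3 CPM in whole-cell WT-res and at 47.5, 65.6 and 54.1 CPM in the cytoplasm. Its ranges overlapped in WT-res, and its log2 fold change of 0.24 in each line passed in neither (adjusted p = 0.458 and 0.279 from edgeR's test). The WT-res value rested on the whole-cell library labelled WT-res replicate 3, and it was -0.01 when that library was left out (adjusted p = 0.972). SEC61G, the other small subunit, had 0.23 in WT-res (adjusted p = 0.192), 0.17 there without that library (adjusted p = 0.348), and 0.45 in ΔRS-res, where it was called higher (adjusted p = 0.036).

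Fractions with the same number deviated together in ΔRS-res, and with the replicate number as a block both small subunits were called higher there (SEC61B with 0.22, adjusted p = 0.0138) and the other 33 genes lower, with 26.3% of all genes called higher and 30.2% lower in that fit. The 4 SSR genes, subunits of the translocon-associated TRAP complex, were all on the lower side, with SSR1 at -1.29, SSR2 at -0.93, SSR4 at -0.85 and SSR3 at -0.28 in WT-res. SSR3 missed the threshold there (adjusted p = 0.0836 from edgeR's test) and passed in ΔRS-res with -0.45 (adjusted p = 0.00162). It also passed in WT-res, with -0.38, once the whole-cell library labelled WT-res replicate 3 was left out (adjusted p = 0.0133).

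The difference between fractions followed the coding length of these genes. A coding length was available here for 34 of the genes, all but XBP1. Across these, Spearman's correlation between coding length and the log2 fold change was -0.56 in WT-res and -0.58 in ΔRS-res. Across all genes with such a length it was -0.10 (12448 genes) and -0.12 (12447 genes). Without the whole-cell library labelled WT-res replicate 3, which was tried after the values had been seen, it was -0.50 in WT-res, and -0.08 across all genes. Genes share their libraries and are not independent replicates, so these are descriptions. SEC61G and SEC61B, with coding lengths of 204 and 288 bases, were the shortest of the list. They were the only members with a log2 fold change above 0 in the fits with all libraries, and SEC61B was not above 0 in WT-res without that library. At similar lengths the members still differed widely. HSPA5, EDEM1 and ATF6, with 1962, 1971 and 2010 coding bases, had log2 fold changes of -3.69, -0.84 and -0.94 in WT-res.

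**Figure D1:**
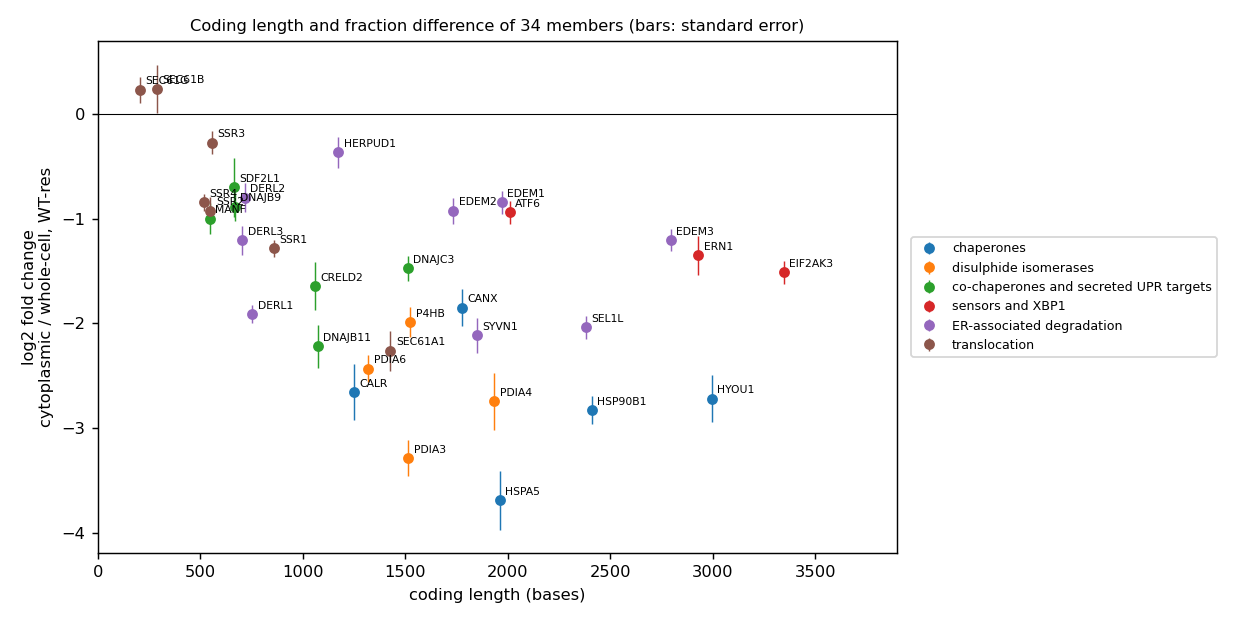
Coding length in bases (horizontal axis) against the log2 fold change, cytoplasmic over whole-cell, in WT-res with its standard error (vertical axis), for the 34 genes with a coding length, coloured by role. SEC61G and SEC61B stand alone above 0 at the short end (SEC61B has -0.01 without the whole-cell library labelled WT-res replicate 3), and HSPA5 and PDIA3 are lowest at intermediate lengths.

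Other gene lists put these values in context. Of 72 further genes of the ER pathway, 53 were called lower and 7 higher in the cytoplasm of WT-res (22.4% and 12% of all genes), and their median was -1.03. Of these, RPN2, a subunit of the oligosaccharyltransferase, had -2.46, and MOGS and UGGT1, which trim and re-glucosylate glycans, had -2.68 and -2.36. Of 24 cytosolic chaperones and chaperonin subunits, 6 were called higher in WT-res and 15 in ΔRS-res, with 12% and 17% of all genes called higher. None was called lower in either line, and the median in WT-res was 0.31. Of 8 mitochondrial chaperones and proteases, which are made in the cytosol, 3 were called higher and none lower in WT-res, with a median of 0.29 and the same background of 12%. The medians of these chaperones of other compartments stood above that of all genes, and those of the ER lists below it.

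The interaction of fraction and line in a joint fit of all 12 libraries was not called for any of the 35 genes by edgeR's quasi-likelihood test, which called 1 gene of all tested (0.00375%). None of the 35 had an unadjusted p under 0.05, and DESeq2's Wald test called none of them either, with 1 of them at an unadjusted p under 0.05. The largest estimates were -0.34 for CANX, XBP1 and EDEM2, and the largest above 0 was 0.28 for HSP90B1. Without the whole-cell library labelled WT-res replicate 3 again none was called, XBP1 alone had an unadjusted p under 0.05, and the estimates ran from -0.48 for ERN1 to 0.32 for CRELD2.

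XBP1 mRNA was examined by transcript, because the segment that IRE1 removes distinguishes annotated transcripts of the gene. XBP1 (ENSG00000100219) lies on chromosome 22 of GRCh38, from 28794555 to 28800597 on the minus strand. The unspliced transcript holds the 26 bases shown in capitals, at chr22:28796124-28796149 in exon 4 of 5, within the coding sequence. The spliced transcript lacks them and is otherwise the same over this stretch.
XBP1 unspliced: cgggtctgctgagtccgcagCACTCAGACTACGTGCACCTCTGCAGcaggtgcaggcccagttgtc
XBP1 spliced: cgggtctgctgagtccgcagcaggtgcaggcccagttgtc
Because bases repeat at its ends, the segment can be placed at 7 positions with the same result, and the one shown has both cuts after the letters CNGCAG.

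The spliced transcript took 5.00%, 4.60% and 6.32% of the XBP1 counts in whole-cell WT-res replicates 1 to 3 and 4.88%, 5.93% and 6.81% in ΔRS-res. In the cytoplasm it took 16.2%, 14.3% and 16.8% in WT-res and 11.4%, 13.6% and 16.8% in ΔRS-res. All 6 cytoplasmic values lay above all 6 whole-cell values, whereas the lines overlapped in both fractions. The mean share was 10.4 percentage points higher in the cytoplasm of WT-res (10.9 with the whole-cell library labelled WT-res replicate 3 left out) and 8.07 points higher in that of ΔRS-res, each with p = 0.1 in a two-sided exact permutation test, the smallest value that 3 against 3 libraries allow. Permuting fractions within each line over all 12 libraries gave an exact two-sided p of 0.005, the smallest of its 400 arrangements, in a test added after the values had been seen. That test did not keep whole-cell and cytoplasmic libraries of the same replicate number together. Between the lines the difference was 0.56 points in whole-cell RNA (exact permutation p = 0.6) and -1.81 points in the cytoplasm (exact permutation p = 0.4).

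As CPM the XBP1 isoforms moved apart between the fractions. The log2 ratio of cytoplasmic to whole-cell CPM was -0.56 ± 0.174 for the unspliced and 1.12 ± 0.289 for the spliced transcript in WT-res (SD, n = 3), and -0.87 ± 0.033 and 0.45 ± 0.0233 in ΔRS-res. Transcripts of XBP1 with a retained intron had -1.91 ± 0.464 and -2.05 ± 0.619, and their share of XBP1 counts was 7.24% ± 0.355 in whole-cell and 2.73% ± 0.862 in cytoplasmic WT-res RNA. RSEM divides reads among isoforms, and only reads over the 26-base segment or the slightly different ends of the transcripts separate the spliced from the unspliced transcript, so these shares are estimates.

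Retained-intron transcripts behaved differently among the other members. In HERPUD1 they took on average 15.9% of counts in whole-cell and 4.01% in cytoplasmic WT-res RNA, and in SEC61G 4.32% and 0.872%, without overlap between the fractions. In PDIA3 the order was the opposite, with 4.72% in whole-cell and 14.9% in cytoplasmic WT-res RNA (4.31% and 14.7% in ΔRS-res), also without overlap. These are shares of a gene's own counts. PDIA3 as a whole was lower in the cytoplasm (log2 fold change -3.29 in WT-res), so its higher share does not mean a higher level there. The highest share was in DERL3, with 28.9% and 36.3% in WT-res.

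ΔRS-res and WT-res were then compared within each fraction, which addresses the study's question of how loss of the RS domain alters RNA levels and their export. In whole-cell RNA none of the 35 genes was called by edgeR's test, and 0% of 26793 genes tested were, with 3360 at an unadjusted p under 0.05. Of the 35, 1 had an unadjusted p under 0.05. DESeq2's Wald test also called none of the 35, and of all genes it called 271 higher and 791 lower. Whole-cell libraries with the same replicate number deviated together, and with the number as a block 2 of 35 were called, with 7.97% of all genes called. These were HYOU1 with a log2 fold change of 0.28 (adjusted p = 0.0326) and EDEM3 with -0.30 (adjusted p = 0.0372).

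With the whole-cell library labelled WT-res replicate 3 left out, SEC61B was called (log2 fold change -0.60, adjusted p = 0.0431 from edgeR's test), which is 1 of 35 genes with 2.06% of all genes called. With that library left out and the block in the fit, a combination added after the values had been seen, 7 of 35 were called, with 16.6% of all genes called. These were SEC61B, PDIA4, CANX, EDEM3 and DNAJC3 with log2 fold changes of -0.51, -0.44, -0.33, -0.23 and -0.21, and HYOU1 and EDEM1 with 0.23 and 0.16.

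The authors retained 4 of the 6 cytoplasmic libraries (WT-res 1 and 3, ΔRS-res 1 and 2) after a principal component analysis. In these 4, 13 of the 35 genes were called higher in ΔRS-res and 9 lower by edgeR's test. Of all genes tested, 10.7% were called higher and 11.4% lower. CPM values within a fraction are scaled over the libraries of that fraction. HSPA5 was at 20.1 and 19.0 CPM in WT-res replicates 1 and 3 and at 25.9 and 27.1 CPM in ΔRS-res replicates 1 and 2, which gave 0.44 on the log2 scale (SE 0.0649, adjusted p = 0.00653). The libraries set aside by the authors went the other way. WT-res replicate 2 had 29.5 CPM of HSPA5 and ΔRS-res replicate 3 had 15.4 CPM. Over all 6 cytoplasmic libraries the lines therefore overlapped, and the log2 fold change was -0.01 (SE 0.240, adjusted p = 0.997).

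Chaperones and their secreted partners made up most of the genes higher in ΔRS-res in the 4 libraries. HYOU1, CALR and HSP90B1 had log2 fold changes of 0.50, 0.63 and 0.37, and PDIA3 and PDIA6 had 0.26 and 0.21. CRELD2 had the largest, 0.78 (adjusted p = 0.00634), with 3.79 and 4.07 CPM in WT-res replicates 1 and 3 and 6.10 and 7.31 CPM in ΔRS-res replicates 1 and 2. SDF2L1, DNAJB11 and MANF had 0.57, 0.39 and 0.32. In degradation and translocation DERL3, DERL2 and SEC61A1 were higher, with 0.55, 0.37 and 0.35.

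For CRELD2 too the libraries set aside overlapped the other line, with 6.06 CPM in WT-res replicate 2 and 4.39 CPM in ΔRS-res replicate 3. CALR was at 67.3 and 59.4 CPM in WT-res replicates 1 and 3, at 100.2 and 95.9 CPM in ΔRS-res replicates 1 and 2, and at 95.6 and 65.8 CPM in the WT-res and ΔRS-res libraries set aside. Of the 13 genes, none was called over all 6 libraries.

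The 9 genes lower in ΔRS-res in the 4 libraries included XBP1 and the sensor genes ERN1 and ATF6. XBP1 was at 67.8 and 70.6 CPM in WT-res replicates 1 and 3 and at 51.5 and 48.4 CPM in ΔRS-res replicates 1 and 2, a log2 fold change of -0.47 (adjusted p = 0.00224). In the libraries set aside XBP1 was at 56.1 CPM in WT-res and 61.1 CPM in ΔRS-res. ERN1 and ATF6 had -0.41 and -0.40, whereas EIF2AK3 had 0.05 and was not called. HERPUD1 and EDEM2 had -0.34 and -0.43, and SSR2 and SSR3 had -0.40 and -0.30. The remaining genes were the lectin chaperone CANX and the isomerase PDIA4.

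These counts rested on few libraries. Without ΔRS-res cytoplasmic replicate 1, 8 of the 22 calls in the 4 libraries were made, and without ΔRS-res cytoplasmic replicate 2, 7 were made. Fewer of all genes were called as well, 8.56% and 7.73% in either direction. CANX, CALR, CRELD2, SDF2L1, XBP1, ATF6 and SSR2 were called in both cases. With a spread shared over both fractions and lines, 1 of the 35 was called, SSR2 (log2 fold change -0.41, adjusted p = 0.0375), and 1.38% of all genes.

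Over all 6 cytoplasmic libraries CANX was the 1 gene of 35 that was called, with 1.53% of all genes called. It was at 448, 388 and 435 CPM in WT-res replicates 1 to 3 and at 287, 278 and 320.4 CPM in ΔRS-res, without overlap. Its log2 fold change was -0.52 (SE 0.0885, adjusted p = 0.0304), and it was -0.64 in the 4 libraries (adjusted p = 0.00108). The call was lost when WT-res replicate 1 or 3 or ΔRS-res replicate 1 or 2 was left out, with adjusted p values of 0.139, 0.163, 0.178 and 0.152 from edgeR's test. The log2 fold change stayed between -0.59 and -0.48 with any 1 library left out. In whole-cell RNA CANX was at 1841, 1842 and 1190.3 CPM in WT-res and at 1485, 1453 and 1311 CPM in ΔRS-res, and the library labelled WT-res replicate 3 lay below all others. Its whole-cell log2 fold change was -0.20 with and -0.38 without that library (adjusted p = 0.703 and 0.057 from edgeR's test).

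PDIA4 was lower in ΔRS-res in every comparison of the lines. In the cytoplasm it was at 24.3, 29.6 and 22.0 CPM in WT-res and at 17.8, 19.2 and 14.5 CPM in ΔRS-res, without overlap. Its log2 fold change was -0.56 over all 6 libraries (adjusted p = 0.152 by edgeR and 0.0201 by DESeq2's Wald test) and -0.32 in the 4 (adjusted p = 0.0384 by edgeR). In whole-cell RNA it was at 215, 216 and 108 CPM in WT-res and at 162, 156 and 122.5 CPM in ΔRS-res. The log2 fold change there was -0.29 with and -0.56 without the library labelled WT-res replicate 3 (adjusted p = 0.716 and 0.0687).

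The genes around PDIA4 shifted with it. PDIA4 (ENSG00000155660) lies on chromosome 7 of GRCh38, from 149003062 to 149028662, and 57 other genes with a mean count of at least 100 lie within 5 Mb. Their median log2 fold change was -0.42 over all 6 cytoplasmic libraries, -0.39 in the 4 and -0.41 in whole-cell RNA when the library labelled WT-res replicate 3 was left out. The part of this stretch in the value of PDIA4 was not tested. Around CANX, at 179678628 to 179731641 on chromosome 5, the median over 78 genes was 0.04 in all 6 cytoplasmic libraries, so its neighbours did not share its lower level.

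In the cytoplasm the CPM values of the lines did not overlap for 4 of the 35 genes (CANX, PDIA4, DNAJC3 and SSR3), while this held for 19.8% of 14938 genes with a mean count of at least 100. In whole-cell RNA this held for 2 of the 35 (DERL1 and SEC61G), and for 24.3% of those genes. With the library labelled WT-res replicate 3 left out, which was tried after the values had been seen, it held for 12 of the 35 (these 2, HSPA5, CANX, PDIA4, DNAJB11, DNAJC3, ERN1, HERPUD1, EDEM1, SEC61B and SSR3) and for 53% of those genes. SSR3 was at 136, 128 and 147 CPM in cytoplasmic WT-res and at 115, 114 and 119 CPM in ΔRS-res, a log2 fold change of -0.24 that missed the threshold (adjusted p = 0.235 from edgeR's test).

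In whole-cell RNA the 2 libraries labelled replicate 3 differed from replicates 1 and 2 in a like way. The WT-res library of this pair is the one that went against its label, with DDX19B and SDHA counts as in ΔRS-res, so a deviation shared by both lines and one of 2 libraries like ΔRS-res cannot be told apart. HSPA5 was at 363 and 372 CPM in WT-res replicates 1 and 2 and at 206 CPM in the library labelled replicate 3, and at 346, 340.0 and 222 CPM in ΔRS-res. Under both line labels replicate 3 lay below the mean of replicates 1 and 2 for 24 of the 35 genes. It lay above it for 9, and on opposite sides for 2. The share over all genes was not counted. The deviations of these 2 libraries from their group means correlated with 0.68 over 14938 genes, so they were not particular to these 35. The lower genes included CALR (log2 differences of -0.82 in WT-res and -0.77 in ΔRS-res), SDF2L1 (-0.86 and -0.73), DNAJB11 (-0.57 and -0.53) and CRELD2 (-0.55 and -0.47).

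The genes above the mean in replicate 3 under both line labels included the sensor ERN1 (log2 differences of 0.44 and 0.56), HERPUD1 (0.38 and 0.41), XBP1 (0.29 and 0.35) and ATF6 (0.18 and 0.25). The same opposition appeared in the cytoplasm of ΔRS-res, where replicate 3 differed from the mean of the others by -0.78 for HSPA5 and by 0.43 for ERN1. In cytoplasmic WT-res the signs were the same but the differences smaller, -0.35 for HSPA5 and 0.24 for ERN1. Replicate 3 was lower there for 23 of the 35 genes and higher for 12, again without a count over all genes. This library had 2059 counts of DDX19B and 10687 of SDHA, as its WT-res label requires. It lay near WT-res replicate 1 for HSPA5 (19.0 and 20.1 CPM) and below that replicate for ERN1. For HSPA5 the whole-cell log2 fold change between the lines was -0.05 with all libraries, far smaller than its difference between replicates. It was -0.28 when the whole-cell library labelled WT-res replicate 3 was left out. The whole-cell CPM values of the lines then did not overlap. For comparison, replicate 3 of whole-cell ΔRS-res differed from the mean of the others by -0.63 for HSPA5. The replicate differences are given without a test, since replicate 3 is 1 library in each group.

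Promoters were searched for the ER stress response element (ERSE), to which ATF6 and NF-Y are known to bind. The letters searched were CCAAT and CCACG with 9 bases between them, on both strands, from 250 bases before to 50 after the start sites in RefSeq (GRCh38.p14). Promoters were found there for 32 of the 35 genes (not for PDIA3, DERL1 and DERL3). ERSE occurred in 7 of these 32, compared with 0.0916% of 27303 genes with a promoter. The sites are shown 5′ to 3′ in their own orientation, with the CCAAT and CCACG ends in capitals.
HSPA5, chr9:125241391-125241409: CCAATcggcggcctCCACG
HSP90B1, chr12:103930216-103930234: CCAATcggaaggagCCACG
HSP90B1, chr12:103930321-103930339: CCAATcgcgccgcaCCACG
CALR, chr19:12938384-12938402: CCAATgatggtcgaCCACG
CANX, chr5:179698778-179698796: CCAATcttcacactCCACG
PDIA6, chr2:10812853-10812871: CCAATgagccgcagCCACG
CRELD2, chr22:49918554-49918572: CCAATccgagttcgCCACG
XBP1, chr22:28800603-28800621: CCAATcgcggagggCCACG
The site of HSPA5, the first of HSP90B1 and those of CANX, PDIA6 and XBP1 read in the direction of the gene, and the others in the opposite direction. The related ERSE-II, ATTGG and CCACG with 1 base between them, occurred in HYOU1, SDF2L1 and HERPUD1 (0.0696% of all genes), and the UPRE, TGACGTGG, in HYOU1, SSR3 and SSR4 (0.927% of all). One ERSE-II site of HYOU1 shares 5 bases with its UPRE.

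Genes with an ERSE did not move as 1 group between the lines. In the 4 cytoplasmic libraries 5 of the 7 were called higher in ΔRS-res and 2 lower, CANX (-0.64) and XBP1 (-0.47), and the median log2 fold change was 0.37, compared with 0.04 for the other 28 genes. Of the other 28, 8 were called higher and 7 lower, and of all genes tested 10.7% and 11.4%. The other 28 include PDIA3, DERL1 and DERL3, whose promoters were not found and so not searched. They are thus genes without a match found, and not all are known to lack an ERSE. Over all 6 cytoplasmic libraries the medians were 0.02 and -0.01, and in whole-cell RNA they were 0.05 and 0.02. All 7 were called lower in cytoplasmic RNA in both lines, with a median of -2.43 in WT-res, compared with -1.21 for the other 28 genes. Of the other 28, 23 were called lower in WT-res and 25 in ΔRS-res, and of all genes tested 22.4% and 24.1%. A match gives letters in a window and does not show binding.

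Other lists were counted beside these genes in the 4 cytoplasmic libraries, with the same background of 10.7% of genes higher and 11.4% lower. Of 11 genes of the PERK and ATF4 branch, none was higher and 7 were lower, DDIT3 (also called CHOP) with -1.06, CHAC1 with -0.87 and ASNS with -0.81. Of 24 cytosolic chaperones and chaperonin subunits, 15 were higher and 1 lower, HSPA8 and DNAJA1 among them with 0.93 and 0.75. Of the 72 further ER genes, 16 were higher and 14 lower. Over all 6 cytoplasmic libraries none of the PERK and ATF4 branch or of the cytosolic chaperones was called, and 4 of the 72 ER genes were (1.53% of all genes), all lower, DNAJC10 with -0.65, FKBP7 with -0.81 and ERP44 with -0.58 among them.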

How the data were processed

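Libraries were depleted of ribosomal RNA. The authors used Trim Galore for trimming, STAR for alignment to GRCh38 and RSEM for Ensembl 107 transcripts (tool versions not given in the sources used here). They deposited unscaled expected counts per transcript. RSEM divides reads among similar sequences, so genes with close copies are less certain. Here the 251121 transcripts were summed to genes, named by GENCODE 44 and rounded. CPM and TPM (per annotated transcript length, weighted by counts) were computed here from the same counts. Genes with a mean count above 2 in the libraries of a fit were scaled by TMM and tested with edgeR 4.0.16 (quasi-likelihood test, R 4.3.3), with Benjamini-Hochberg adjustment over all genes and calls at 0.05. The test was also run on counts simulated from edgeR's own estimates with independent libraries, which cannot show how it handles mislabelled or paired libraries. Standard errors are the fold change over the root of F. Alternatives were DESeq2 1.42.0, its size factors, other filters, the study's threshold (a log2 fold change beyond ±0.5 and an unadjusted p under 0.05), a joint fit, a replicate block and each library left out.

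The genes, the lists and the tests were chosen with earlier results of these data known. All 35 genes are named. Of the other lists, at most the 3 largest called changes per list and comparison are named. P-values measure the spread between passages of 1 line.

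Whether replicate numbers pair the samples was checked by the correlation of deviations from group means over 14938 genes. It was 0.54, 0.55 and 0.68 between lines in whole-cell RNA and -0.42, 0.62 and 0.47 in the cytoplasm. Between fractions, which carry the same pellet number in the study's sample sheet, it was 0.52, 0.47 and 0.80 in ΔRS-res and -0.17, 0.59 and 0.47 in WT-res. The whole-cell means used here include the library labelled WT-res replicate 3. The main whole-cell test had no replicate term, and the fit with the number as a block is given beside it. Protein sequence features were not analysed here.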

Additional observations from a re-analysis of the deposited data

How the results depend on the processing

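The 30 genes called lower in the cytoplasm of WT-res and the 33 called in ΔRS-res had the same direction in every alternative run, and 29 to 32 and 31 to 35 genes were called, 32 and 35 with the replicate block. The one sign change among the 35 was SEC61B in WT-res, uncalled in both cases, with -0.01 when the whole-cell library labelled WT-res replicate 3 was left out. Their median log2 fold change was -1.29 with DESeq2's size factors in WT-res (a shift beyond the spread of replicates), and it lay between -1.43 and -1.31 in WT-res and between -1.51 and -1.36 in ΔRS-res when 1 library was left out. The comparisons of lines depended more on the settings. In whole-cell RNA 0 genes were called, 2 with the replicate block, 0 to 1 when 1 library was left out, and 7 with the replicate block and that library left out. In the 4 cytoplasmic libraries the 22 calls became 5 under the study's threshold, 1 in the joint fit, and 7 to 23 when 1 library was left out, which leaves 1 library in an arm and assumes that it varies like the other group. Under the study's threshold 1346 of all 25814 genes tested were called higher in these 4 libraries and 2028 lower. The study applied that threshold to DESeq2 results of transcript isoforms, whereas here it was applied to edgeR results of gene sums. No paired analysis was possible in the 4 cytoplasmic libraries because the lines share only 1 replicate number there. Over all 6 cytoplasmic libraries 1 gene was called, 2 (CANX and PDIA4) under the study's threshold, with DESeq2's Wald test, with no filter and with the replicate block, 0 in the joint fit, and 0 to 1 when 1 library was left out. Of all 25949 genes tested, the study's threshold called 566 higher and 906 lower, DESeq2's Wald test 428 and 508, and the block 194 and 326. With no filter, 206 of 38634 genes were called higher and 367 lower. The replicate block changed no call of the interaction. Cytoplasmic replicates 1 of the 2 lines deviated in opposite directions, so their numbers were taken as names only. The difference of the spliced XBP1 share kept its sign under all alternatives run. The cause of these shifts was not tested. Groups of 2 or 3 libraries of 1 line each limit all of these comparisons.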
